A study of Caenorhabditis elegans with 9 samples.

Results

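The dense runs described here are stretches of the C. elegans genome where 5 or more called EGL-5 binding regions follow each other closely. They were chosen from the positions of the combined peak list alone. Peaks were sorted by midpoint, neighbours whose midpoints lay at most 5000 bp apart were joined, and runs of 5 or more peaks were kept. This gave 70 dense runs with 407 of the 4688 combined peaks (8.68%). The main reference is the 2074 peaks that stood alone, with no other midpoint within 5000 bp. The remaining 2207 peaks lay in 889 runs of 2 to 4.

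EGL-5 is a Hox transcription factor of the Abdominal-B class. Hox proteins give cells along the body axis their regional identity, and EGL-5 acts in the posterior, in cells of the tail and rectum, in posterior muscle and neurons, and in the HSN motor neurons that drive egg laying. Its homeodomain recognises short, AT-rich DNA, a sequence common enough in the genome that Hox proteins often bind together with cofactors such as CEH-20, and a regulatory region can hold several sites near each other.

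Binding was mapped by ChIP-seq with an affinity-purified goat antibody against GFP, in pools of synchronised third-larval-stage (L3) hermaphrodites grown at 20 °C. All libraries come from 1 strain, OP54, which has the ed3 allele of unc-119 on chromosome III and the transgene wgIs54. That transgene, brought in by bombardment, restores unc-119(+) and adds a tagged copy of the gene, egl-5::TY1::EGFP::3xFLAG. The labels list 2 ChIP libraries of replicate 1, 2 ChIP libraries of replicate 2 and 5 input libraries, which hold total genomic DNA taken before the antibody step, and there is no group without the transgene. The authors deposited a peak list for each replicate (2420 and 1345 peaks) and the combined list, in which each peak has a q-value from the caller, at most 0.01.

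Most dense runs held few more peaks than the rule asks for. There were 42 runs of 5 peaks, 15 of 6 and 13 of 7 or more, the largest with 14. A run was 9434.5 bp long in the median, from 3929 to 25937 bp. Peaks covered 26.7% of a run in the median, from 9.02% to 87.8%, so most runs were rows of separate narrow peaks with uncalled sequence between them. End to end the 70 runs measured 729 kb, which is 0.732% of the 99.7 Mb between the outermost peaks of the chromosomes, and they held 9.31% of all bases inside combined peaks.

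The limits of the rule cut through a continuous range. In 22 of the 70 dense runs the longest inner distance was 4000 to 5000 bp. Of the 90 runs of 4 peaks just outside the rule, 12 had their next peak within 6000 bp. In runs of exactly 5 peaks 23.3% of peaks were found in both replicates, and in runs of exactly 4 peaks 18.1%.

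The first question was which runs stand out when all 3 lists are read together. When each replicate list was joined by the same rule, only 3 of the 70 combined dense runs met a dense run of both replicates, and 8 more met one of replicate 1 only. The replicate lists are shorter, which by itself leaves fewer runs, and they may share reads with the combined list, so no test was made. The 3 lay on chromosomes III, IV and V. The same 3 stretches were the only dense runs when the rule was applied to combined peaks found in both replicates, where found means at least 1 bp shared with a peak of each replicate list.

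On chromosome IV the run from 13692462 to 13708335 (WS190, as are all positions) had 7 combined peaks in 15874 bp, and 6 of them were found in both replicates, the joint highest count. Their q-values were 1.43e-11, 8.72e-07, 1.22e-14, 1.41e-05, 3.18e-05 and 1.58e-16 in order along the chromosome. The peak found in neither replicate, from 13700867 to 13701924, was the widest of the run at 1058 bp and had q = 0.00962, near the caller's limit. Replicate 1 had 6 peaks in the stretch and replicate 2 also had 6, one on each of those 6 combined peaks. The nearest combined peak outside the run was 69648.5 bp away, midpoint to midpoint, so the run stood alone.

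On chromosome V the run from 11204454 to 11215081 had 7 combined peaks in 10628 bp. Replicate 1 had 6 peaks there and replicate 2 had 7, and the sole peak missing from replicate 1 was the narrowest, 193 bp wide, at 11206479 to 11206671 (q = 6.87e-05). The peak of lowest q lay at the right end, from 11214553 to 11215081 (q = 2.09e-16), and the first peak of the run, from 11204454 to 11204773, had q = 2.88e-13. In its own list that right-end peak had q = 3.87e-07 and rank 172 in replicate 1, and q = 4.02e-08 and rank 58 in replicate 2.

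On chromosome III the run from 7803016 to 7820619 was of another kind. Its 5 peaks covered 87.8% of 17604 bp, more than in any other dense run, and were 1763, 4460, 912, 3245 and 5080 bp wide in order. All 5 were found in both replicates, the sole dense run of which this holds. Their q-values differed widely, 0.000266 and 2.35e-10 for the first and the middle peak against 4.71e-75, 1.62e-196 and 1.94e-143 for the other 3. Replicate 1 had 6 peaks in the same stretch and replicate 2 had 10, so not all boundaries inside it were shared between lists. A break between peaks lay at nearly the same place in all 3 lists. It ran from 7809456 to 7810882 among combined peaks. For replicate 1 the break was 7809443 to 7810886, and for replicate 2 it was 7809413 to 7810951. The rule also cut the run. The next combined peak, from 7822609 to 7824800 (q = 3.94e-102), began 1989 bp after the run's end, but its midpoint was 5625 bp from the last one. In replicate 2 it belonged to the same run, which had 12 peaks from 7803056 to 7824781.

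The gene table used here lists egl-5 itself on chromosome III, on another genome build. Whether this run is the egl-5 locus, which the transgene carries as an added copy, was not tested. The 3 tests below are also given without this run. The peak that the rule cut off from it counts as a single peak and stayed in the comparison.

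**Figure D1:**
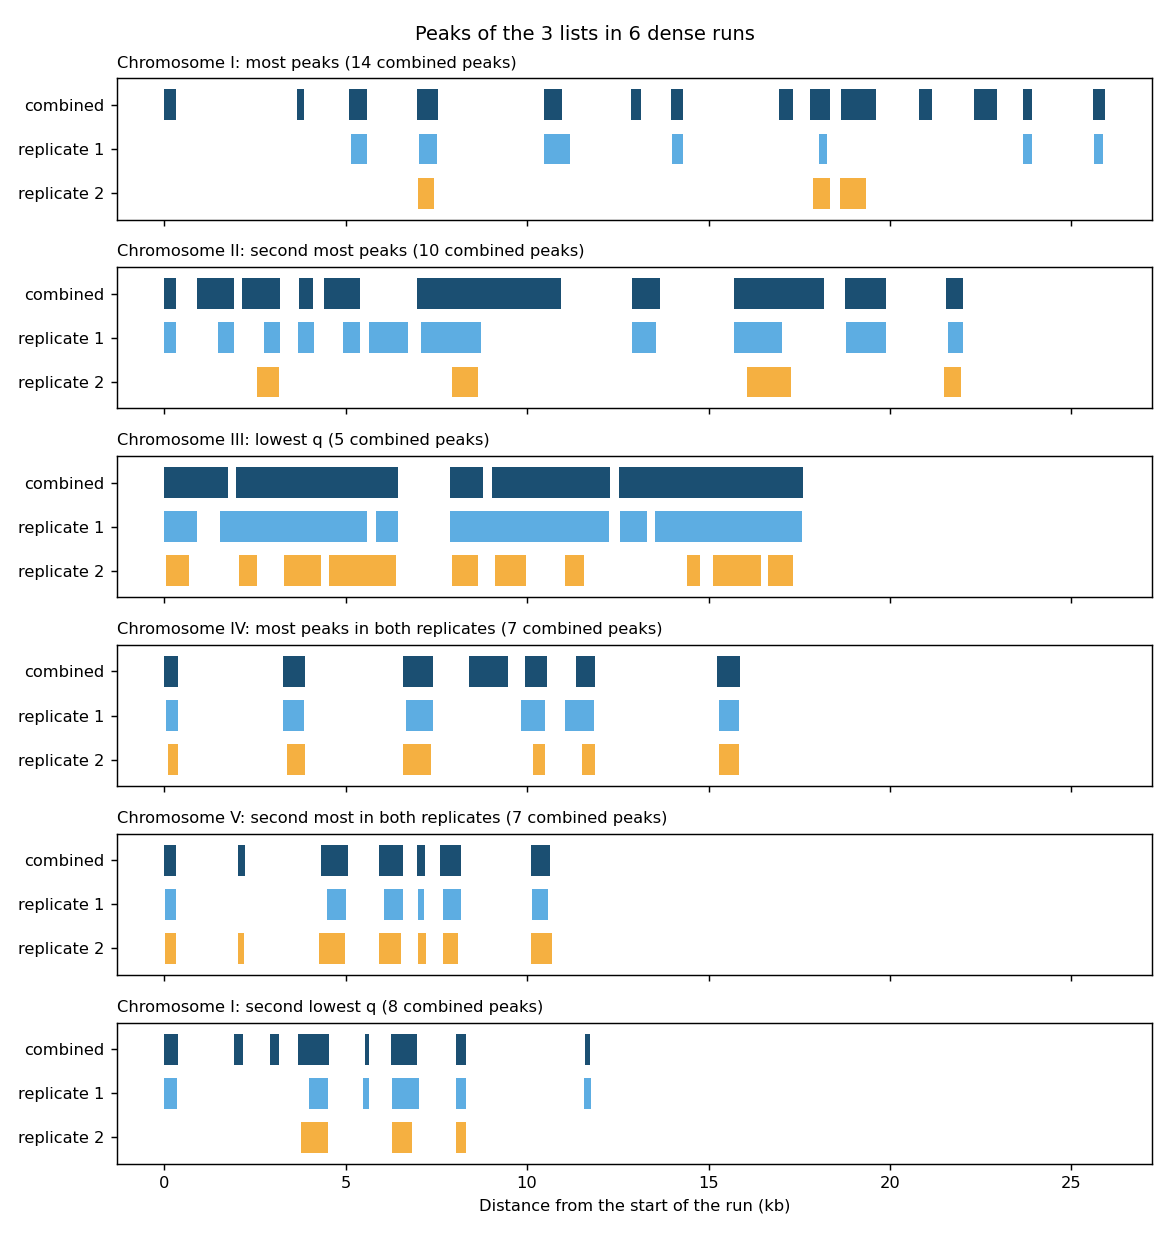
Peaks of the combined list, replicate 1 and replicate 2 (rows, top to bottom) in 6 dense runs, against the distance from the start of the run in kb; each bar is a called peak at its true width. On chromosomes IV and V the 3 lists place narrow peaks at the same sites, while on chromosome III 5 wide combined peaks cover 87.8% of the run and the lists divide it differently; on chromosome I most combined peaks have no replicate 2 partner.

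The longest run of all lay at the right end of chromosome I, from 14917484 to 14943420, at 99.1% of the chromosome's span. It had 14 peaks of at most 984 bp and a lowest q of 1.05e-08. Of these, 7 were found in replicate 1, 3 in replicate 2 and 2 in both, and 6 were found in neither.

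The second, on chromosome II from 6819471 to 6841478, had 10 peaks in 22008 bp. All 10 were found in replicate 1 but 4 in replicate 2. Its peaks were broad, covering 57.3% of the run, with one of 3978 bp from 6826434 to 6830411. Replicate 1 had 11 peaks in the stretch. The third, on the X chromosome from 12079756 to 12092959, had 9 peaks, of which 3 were found in replicate 1, 2 in replicate 2 and 1 in both. Its lowest q was 9.80e-08. It was the most remote of the 3 largest, with its next peak 61804 bp away.

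Of the 4 runs of 8 peaks, 3 lay on chromosome I. That from 4926407 to 4943664 had no replicate 2 peak anywhere in its 17258 bp, and 4 of its peaks were found in replicate 1. That from 2676834 to 2689618 had 6 peaks found in neither replicate and 1 strong peak, from 2678005 to 2678450 (q = 2.78e-17), found in both. The run of 8 outside chromosome I lay on chromosome IV from 16482633 to 16503846, at 94.3% of the span. There 4 peaks were found in both replicates, among them the widest, from 16491075 to 16493019 (1945 bp, q = 2.11e-16). Another run on chromosome IV, from 11347025 to 11354438, packed 7 peaks into 7414 bp. Of these 2 were found in both replicates.

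In some runs 1 strong peak stood among weak ones. On the X chromosome the shortest run, from 8760467 to 8764395, ended in a peak of 467 bp with q = 7.48e-30, while its other 4 peaks had q between 0.000180 and 0.00853. That strong peak was found in both replicates and none of the other 4 was. On chromosome I the run from 7472303 to 7479692 had a peak of 1239 bp with q = 7.43e-25 and 4 others with q between 0.00111 and 0.00243. The run of 8 from 7036732 to 7048475 on the same chromosome instead had 4 strong peaks. They lay at 7042970 to 7043705 (q = 2.81e-35), 7040414 to 7041271 (q = 1.32e-22), 7036732 to 7037102 (q = 1.62e-12) and 7044760 to 7045060 (q = 6.53e-11). All but that at 7036732 were found in both replicates, and the other 4 peaks had q between 8.47e-05 and 0.00971.

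Another run of low q on chromosome I, from 7706964 to 7717864, had little support in replicate 2. All 6 of its peaks were found in replicate 1 and 1 in replicate 2. Its strongest peak, 2042 bp wide from 7708258 to 7710299 (q = 1.15e-25), matched the replicate 1 peak of rank 11 (q = 2.01e-15) and no replicate 2 peak.

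The peak of lowest q in each of the 70 runs was 531.5 bp wide in the median and the other 337 peaks were 392 bp wide. The median −log10 q was 9.45 for the leading peaks and 3.25 for the others. Of the 70 leading peaks 46 (65.7%) were found in both replicates, and of the others 53 (15.7%). Because the leading peak was picked for its q, these values are a description with no test. In some runs the second peak had nearly the same q, as in the run of 14 peaks on chromosome I (1.05e-08 and 1.07e-08). The leading peak was the first or last of its run in 24 runs and the widest in 27.

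The second question was whether peaks of dense runs were found again in the replicates more often than peaks that stood alone. Of the dense-run peaks 99 of 407 were found in both replicates (24.3%, 95% Wilson interval 20.4 to 28.7), against 362 of 2074 single peaks (17.5%, 15.9 to 19.1). The share over all combined peaks was 18.9%. The odds were 1.52 times higher in dense runs (95% interval 1.10 to 2.10, adjusted p = 0.0170, n = 407 and 2074 peaks), in a logistic model in which the error was taken between runs and not between peaks. Adjustment was by the Benjamini-Hochberg method over 3 tests. The peak and the run are the units here, so the p-value says nothing of the spread between worms. The replicate lists may share reads with the combined list, so the test does not measure independent reproduction of the peaks. Runs of 2 to 4 peaks lay between, at 19.2%. The share did not rise steadily among them: it was 19.2%, 19.7% and 18.1% in runs of exactly 2, 3 and 4.

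Without the chromosome III run the odds ratio was 1.44 (1.05 to 1.99, adjusted p = 0.0364, n = 402 and 2074 peaks). With deciles of q and the width in the model the odds ratio was 0.758 (0.469 to 1.23, adjusted p = 0.259, n = 407 and 2074 peaks), and without chromosome I as well it was 1.17 (0.681 to 2.02, adjusted p = 0.566, n = 244 and 1694 peaks). Neither passed the test. Nor did the result hold when peaks within 1000 bp of each other were first merged, which left 19 dense runs with 106 peaks and an odds ratio of 0.998 (0.565 to 1.76, adjusted p = 0.993, n = 106 and 2342 peaks).

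Each replicate alone showed a smaller gap that did not pass the test. In dense runs 53.6% of peaks were found in replicate 1, against 47.8% of single peaks and 49.9% of all (odds ratio 1.26, 0.979 to 1.62, adjusted p = 0.0728, n = 407 and 2074 peaks). For replicate 2 these shares were 30.2% in dense runs, 27.1% of single peaks and 27.6% of all (odds ratio 1.16, 0.864 to 1.56, adjusted p = 0.320, n = 407 and 2074 peaks). Peaks found in neither replicate made up 40.5% of dense-run peaks, 42.5% of single peaks and 41.4% of all. Dense runs still held many peaks with no support in either.

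**Figure D2:**
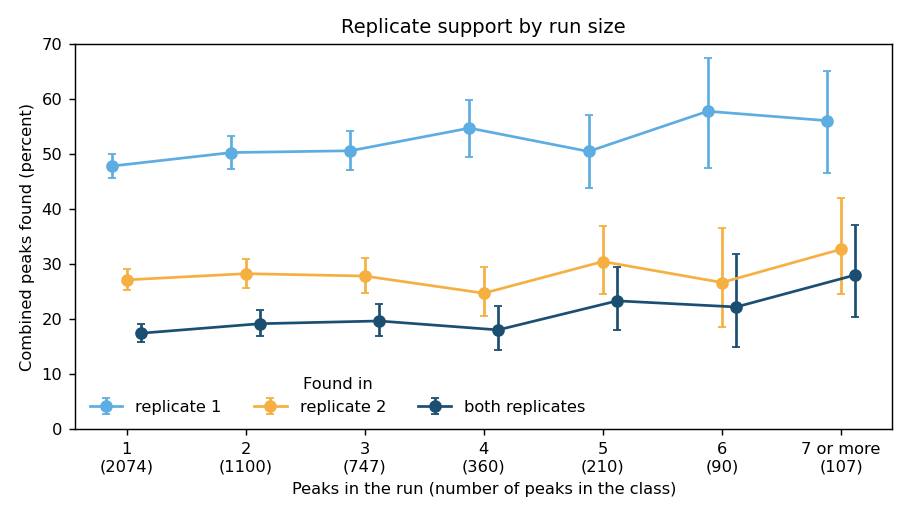
Share of combined peaks found in replicate 1, replicate 2 and both (percent, with 95% Wilson intervals, which cover the counting of peaks only) by the number of peaks in the run; the number of peaks in each class is in brackets. The share found in both is 17.5% for peaks alone and 28.0% in runs of 7 or more, with wide intervals in the classes of 5, 6 and 7 or more.

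Seen run by run, support was uneven. In 23 of the 70 runs no peak was found in both replicates, in 18 exactly 1 was, and in 29 at least 2 were. At least 50% of the peaks were found in both replicates in 11 runs. Among the 23, 3 runs had no peak found in either replicate. They lay on chromosome IV from 4519875 to 4533231 (6 peaks) and from 10524510 to 10528694 (5 peaks) and on chromosome V from 10453515 to 10462281 (5 peaks). Their lowest q-values were 0.000381, 0.000845 and 0.000371, the 3 highest such values among the 70 runs. In the median run the lowest q was 3.69e-10.

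**Figure D3:**
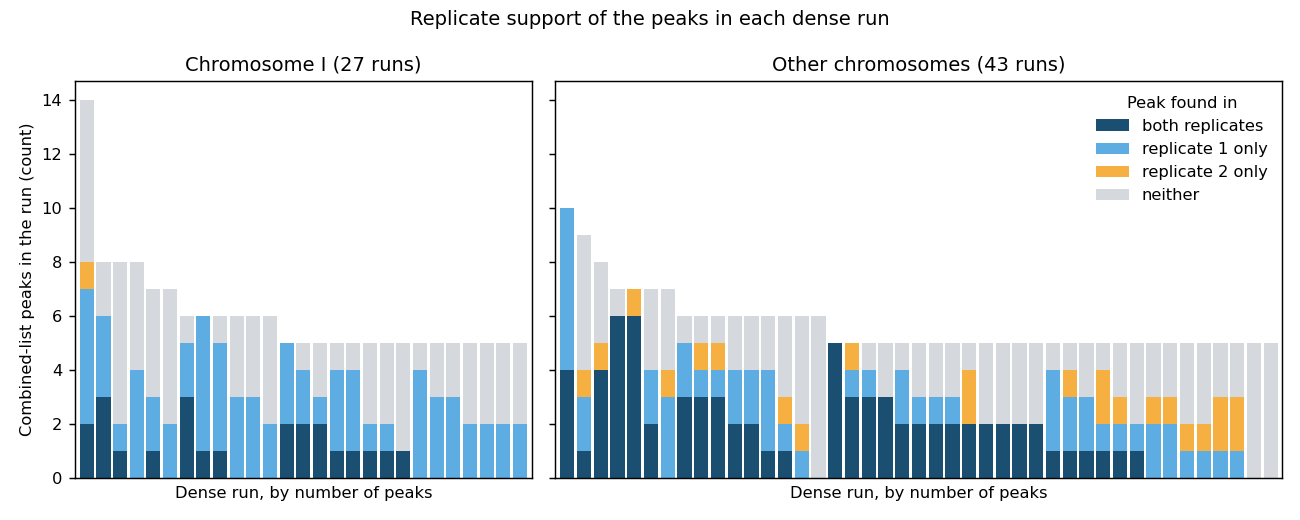
Number of combined peaks in each of the 70 dense runs (bars), coloured by whether they were found in both replicates, replicate 1 only, replicate 2 only or neither; the 27 runs of chromosome I are on the left and the 43 others on the right. On chromosome I 12 runs have no peak found in both replicates, against 11 of the 43 others, and 1 peak there was found in replicate 2 only.

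The third question was how peaks in dense runs differ in q and width. Dense-run peaks had lower q. Their median −log10 q was 3.72 (quartiles 2.73 and 6.40), against 3.32 (2.50 and 4.85) for single peaks. The geometric mean of −log10 q was 1.19 times higher (1.08 to 1.30, adjusted p = 0.000539, n = 407 and 2074 peaks, Gaussian model with errors between runs). With the width in the model the ratio was 1.15 (adjusted p = 0.000767, n = 407 and 2074 peaks), and without the chromosome III run it was also 1.15 (adjusted p = 0.000370, n = 402 and 2074 peaks). The difference did not pass the test once peaks within 1000 bp were merged (1.07, 0.944 to 1.20, adjusted p = 0.483, n = 106 and 2342 peaks).

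The difference lay mostly at the strong end of the list. Among the 25% of combined peaks with the lowest q were 134 of the dense-run peaks (32.9%) and 469 of the single peaks (22.6%). Among these 67.2% of dense-run peaks were found in both replicates, and 65.03% of single peaks. In the next 25% by q these shares were 10.2% in dense runs and 10.7% of single peaks. Without chromosome I the shares were 80.7% in dense runs and 73.5% of single peaks in the first 25%, and 18.8% in dense runs and 13.3% of single peaks in the next. In the 50% of peaks with the highest q none of 185 dense-run peaks was found in both replicates. This allows a share of up to 1.62% if peaks are counted as independent, and peaks of 1 run may not be. Of 1082 single peaks 1 was found in both replicates.

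**Figure D4:**
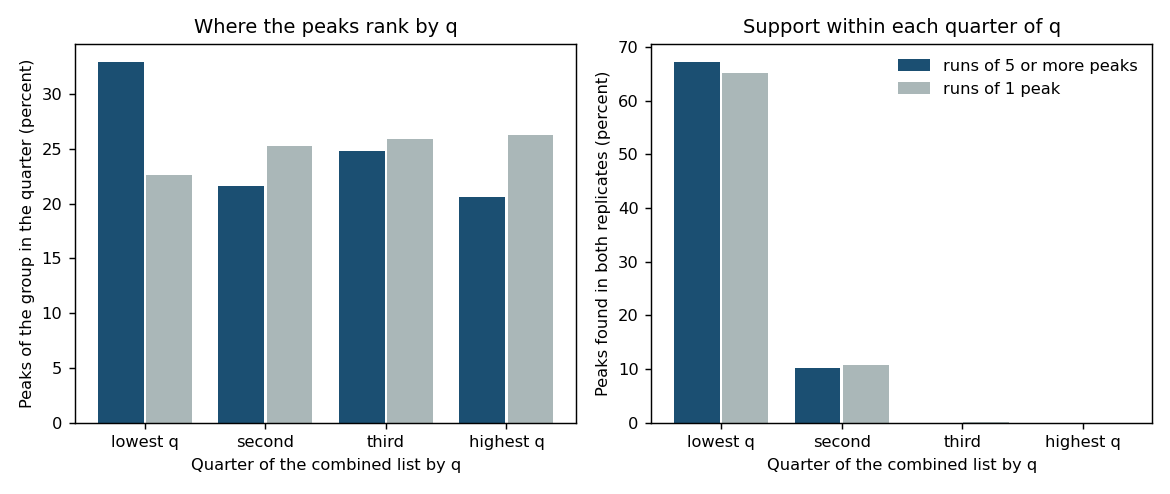
Left, share of the peaks of dense runs and of single peaks that fall in each successive 25% of the combined list by q (percent); right, share of those peaks found in both replicates (percent). Dense-run peaks are more frequent in the 25% of lowest q (32.9% against 22.6%), and within the 25% of lowest q the share found in both is 67.2% in dense runs and 65.03% of single peaks. All chromosomes are included.

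Widths differed less. Dense-run peaks were 412 bp wide in the median (quartiles 287 and 613.5), against 371 bp (274 and 525) for single peaks. The ratio of geometric means was 1.12 (0.992 to 1.25, adjusted p = 0.0669, n = 407 and 2074 peaks), which did not pass the test. Without the chromosome III run it was 1.09 (0.977 to 1.21, adjusted p = 0.122, n = 402 and 2074 peaks). With the chromosome as a term in the model it passed (1.16, 1.03 to 1.30, adjusted p = 0.0150, n = 407 and 2074 peaks). Peaks of 1000 bp or more made up 8.60% of the peaks in dense runs, 7.70% in runs of 2 to 4, 5.01% of the single peaks and 6.59% of all. In runs of exactly 5 peaks the share was 6.19%. On X the order was reversed, with 4.44% in dense runs and 8.21% of single peaks. The widest peak of a dense run had 5080 bp, while the widest single peak had 9983 bp. Because the rule measures between midpoints, a wide peak has less room for a neighbour within 5000 bp. Width is thus not free of the rule, and the width test cannot separate the rule's effect from a trait of dense runs. Very narrow peaks, under 50 bp, made up 1.97% of dense-run peaks, 2.84% of single peaks and 2.69% of all.

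The replicate lists gave the same order of medians. Replicate peaks inside dense runs were all those within a run's span, also any between combined peaks. Those on single peaks had to meet a single combined peak, so the sets were not defined alike. Replicate 1 peaks inside the dense runs were 438 bp wide, against 389 bp for those on single peaks. In replicate 2 these widths were 432.5 bp inside dense runs and 375 bp on single peaks. Of the replicate 1 peaks inside dense runs 43.9% met a replicate 2 peak, against 36.6% on single peaks. Of the replicate 2 peaks inside dense runs 79.2% met a replicate 1 peak, against 64.2% on single peaks. These lists may share reads with the combined list, so the values are given with no test.

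Within the runs neighbouring midpoints lay at most 5000 bp apart by the rule itself. Between the edges of the 337 neighbouring pairs lay 1198 bp in the median, from 205 to 4625 bp. In 143 pairs (42.4%) the gap was at most 1000 bp. For pairs in runs of 2 to 4 the median gap was 1540 bp, and 33.5% had a gap of at most 1000 bp. In dense runs a single replicate 1 peak bridged both members of a pair in 3 pairs. No replicate 2 peak did so, which allows a share of up to 0.890% if pairs are counted as independent. Only 53.6% of dense-run peaks met a replicate 1 peak and 30.2% a replicate 2 peak. A pair can be bridged only where both members meet a replicate peak, so these counts cannot show that neighbours are distinct sites. Where both replicates met a combined peak, the midpoints of their nearest peaks lay 53.5 bp apart in the median in dense runs (99 peaks) and 37.5 bp apart at single peaks (362 peaks).

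The last question was where the runs lay. Chromosome I held 27 of the 70 runs and 163 of the 407 peaks (40.05%), against 18.3% of single peaks and 15.1% of the span. It had 1.79 dense runs per Mb. The other chromosomes had between 0.430 per Mb on V and 0.590 on II, with 0.461 on X. The X chromosome held 11.1% of dense-run peaks and 19.96% of single peaks, in 8 dense runs. Of the peaks in shorter runs, neither dense nor single, 24.7% lay on chromosome I and 20.5% on X. The rule itself depends on local peak density, so these shares are a description with no test.

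The runs on chromosome I had little support in replicate 2. Of their 163 peaks 55.8% were found in replicate 1 and 14.7% in replicate 2, and 12 of the 27 runs had no replicate 2 peak within their span. Elsewhere 52.05% of the 244 dense-run peaks were found in replicate 1 and 40.6% in replicate 2, and 3 of 43 runs lacked a replicate 2 peak. Single peaks showed the same split, with 54.2% and 9.74% on chromosome I and 46.4% and 31.1% elsewhere. Peaks found in neither replicate made up 43.6% of dense-run peaks on chromosome I and 38.5% elsewhere. Of the 11 dense runs in the replicate 1 list 6 lay on chromosome I, and of the 5 in the replicate 2 list none did.

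Leaving chromosome I out did not remove the difference in support. On the other chromosomes 31.1% of dense-run peaks were found in both replicates, against 19.4% of single peaks (odds ratio 1.88, 1.28 to 2.75, adjusted p = 0.00372, n = 244 and 1694 peaks). On chromosome I these shares were 14.1% in dense runs and 8.68% of single peaks (odds ratio 1.73, 0.965 to 3.09, adjusted p = 0.0990, n = 163 and 380 peaks). Runs of 2 to 4 peaks lay between, at 11.5% on chromosome I and 21.7% on the others. The odds ratio on chromosome I was 0.920 times that elsewhere (0.458 to 1.85, adjusted p = 0.816 for the interaction, n = 407 and 2074 peaks), so no difference between them was shown.

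Along the autosomes dense runs lay at the centres only in part. The central 33.3% held 168 of 362 dense-run peaks (46.4%), against 670 of 1660 single peaks (40.4%). Peaks in shorter runs, neither dense nor single, were central nearly as often as dense-run peaks (804 of 1755, 45.8%). The centres of worm autosomes are rich in conserved genes and the arms rich in repeats. The chromosomes went different ways. On II 42 of 52 dense-run peaks were central (80.8%, against 45.2% of single peaks), while on IV 12 of 54 were (22.2%, against 37.5%). On III the shares were 51.2% in dense runs and 37.8% of single peaks, and on V 57.7% and 44.1%. On I they were 38.7% and 38.2%. On X the central part held 33.3% of dense-run peaks and 33.1% of single peaks. Apart from chromosome I, with 27 dense runs, the dense-run share of each chromosome rests on 8 or 9 runs, and no test was made.

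**Figure D5:**
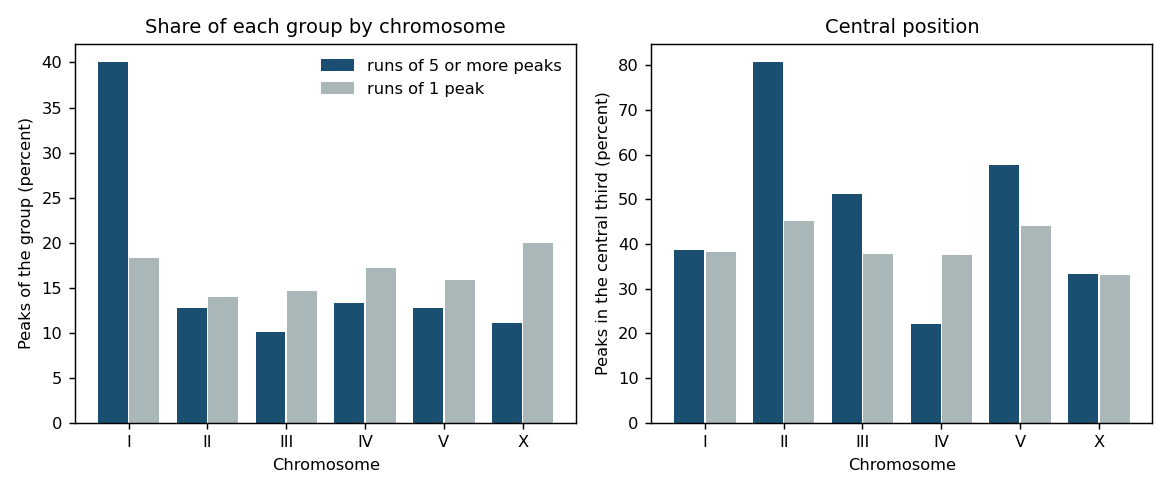
Left, share of dense-run peaks and of single peaks on each chromosome (percent of the group); right, share of each chromosome's peaks that lie in the central 33.3% of its span (percent). Chromosome I holds 40.05% of dense-run peaks and 18.3% of single peaks; on II dense-run peaks are central more often than single peaks and on IV less often.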

How the data were processed

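Each ChIP library and input library was made from L3 larvae. The authors deposited 3 peak lists, called with PeakSeq on WormBase WS190 per the file headers and source columns, and the number given to each peak is its q-value as deposited. Neither the aligner nor the caller's version, nor which inputs and reads went into the combined list, is stated in the labels or headers. Depth per library is unknown, since the lists hold no reads, and intervals cover the counting of peaks only. Nothing in the labels says that replicates were grown apart.

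All peaks were used. Runs, overlaps (1 bp), widths and spans (first to last base of any peak on a chromosome) were computed with Python 3.11.15, pandas 2.3.3 and NumPy 2.4.6. Dense-run and single peaks were compared with generalised estimating equations in statsmodels 0.14.6, with an independence working correlation and robust errors clustered by run, two-sided, on the odds of being found in both replicates, log2 width and log2 of −log10 q. Both models recovered known effects when tested on simulated data. Those data had normal errors or a fixed correlation of calls within runs, so they do not show how the intervals behave on the real values. Alternatives were other distances, run sizes, overlaps, merging, q and width as covariates, subsets and each replicate alone. Runs named in the text are the 10 with most peaks, the 5 of lowest q and the 5 with most peaks found in both replicates; the 3 runs found in no replicate, close neighbouring runs and runs dense only in a replicate were named after their values were seen. The members and comparisons were chosen with earlier results of these data known. Genes were not assigned, because the gene table used here is on another build.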

Additional observations from a re-analysis of the deposited data

How the results depend on the processing

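Each result was recomputed under the alternatives, of which chromosome I alone, chromosome as a term, leaving out the chromosome III run, and q and width together with leaving out chromosome I were chosen after seeing the data. The odds ratio for support in both replicates (1.52) did not pass the test with midpoints at most 2500 bp apart (1.36), 7 or more peaks (1.84), the 50% of peaks with lowest q (1.41), replicate peaks matched by midpoints within 200 bp (1.40) or chromosome I alone (1.73), nor with q and width in the model without chromosome I (1.17). It turned below 1 after merging (0.998) and with q and width in the model (0.758); neither passed. With 1 replicate in place of both it ran from 1.16 to 1.26 and did not pass. The width ratio (1.12) passed with midpoints at most 10000 bp apart (1.10), 4 or more peaks (1.13), without chromosome I (1.18) and with chromosome in the model (1.16), turned to 0.900 after merging, and ran from 1.27 in the replicate 2 list to 1.41 in the replicate 1 list, where it passed. The −log10 q ratio (1.19) did not pass with midpoints at most 2500 bp apart (1.13), after merging (1.07) or on chromosome I alone (1.15), and ran from 1.46 in the replicate 1 list to 1.67 in the replicate 2 list, where it did not pass. The number of dense runs (70) was 23 and 164 with limits of 2500 and 10000 bp, 19 after merging, 43 without chromosome I, 3 when peaks had to be found in both replicates, and from 5 to 11 in the single replicate lists. The cause of these shifts was not tested, beyond the smaller number of peaks that merging and the shorter lists leave by construction. No paired analysis was possible because the peak lists hold no value per library.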

Other observations

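Of the 64 gaps between successive dense runs of a chromosome, 6 were at most 50000 bp, 4 of them on chromosome I, against a median of 706358 bp. On chromosome II the runs from 7635143 to 7643803 and from 7648560 to 7656154 were only 4756 bp apart, edge to edge. On chromosome I the runs from 9422207 to 9435442 and from 9444166 to 9450418 lay 8723 bp apart. On chromosome III the run from 7778553 to 7792291 ended 10724 bp before the run of lowest q, with no combined peak in between.

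Of the 5 dense runs of the replicate 2 list, 2 were not dense in the combined list. On chromosome III, from 9080074 to 9084608, replicate 2 had 5 peaks, the combined list 4 and replicate 1 had 3. On chromosome V, from 10715758 to 10727994, replicate 2 had 5 peaks while the combined list and replicate 1 each had 4.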
